A study of Homo sapiens with 66 samples.

Results

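The tripartite-motif (TRIM) genes TRIM5, TRIM6, TRIM14, TRIM21, TRIM22, TRIM34 and TRIM38 were followed through 2 RNA sequencing studies of THP-1, a human monocytic leukemia cell line. The 7 genes were taken by their Ensembl identifiers from the 57820 genes of the count tables, as family members with described antiviral or interferon (IFN) signaling roles, and they were chosen by the TRIM22 log2 fold changes of study 1, in which TRIM22 lay higher after each single gRNA targeting. Single-targeting values in study 1 are therefore given as a description, without a test, and the same holds for every TRIM22 value that rests on a single targeting. TRIM proteins typically carry a RING domain, which gives them ubiquitin E3 ligase activity, followed by B-box and coiled-coil domains and, in many, a C-terminal PRY/SPRY domain that binds targets. Type I IFN is released when sensors such as MDA5 and RIG-I detect double-stranded RNA, and it acts through a cell surface receptor to switch on IFN-stimulated genes, a set to which several TRIM genes belong.

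Study 1 used a STING-deficient, Cas9-transgenic THP-1 clone, and all of its cells, controls included, lacked STING and carried Cas9. Cells were nucleofected with a pair of gRNAs and harvested whole 3, 4 or 5 d later, with 3 libraries per group and day. The groups were CTRL (nontarget control gRNA), GFP (GFP gRNA plus control gRNA), ADAR (ADAR gRNA plus control gRNA), hnRNPC (hnRNPC gRNA plus control gRNA) and ADAR+hnRNPC (both), together with CTRL cells that received recombinant IFN-α from day 3 to day 4, when they were harvested. Study 2 used a wild-type Cas9-transgenic clone made by limiting dilution and other gRNA sequences for ADAR and hnRNPC, on day 4 only, with 2 libraries each of total and cytosolic RNA for CTRL, hnRNPC, ADAR and ADAR+hnRNPC and of the nuclear fraction for hnRNPC. Each study rests on 1 clone. No selection for loss of the targeted protein is described, and the share of edited cells in the targeted groups was not measured here.

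Gene totals ran from 95107690 to 152829008 counts in the 48 libraries of study 1 and from 49666958 to 73873756 in the 18 libraries of study 2. HNRNPC, which encodes a nuclear RNA-binding protein, had group means of 779 to 832 CPM (counts scaled to library size) in CTRL and 315 to 395 CPM in the hnRNPC and ADAR+hnRNPC groups of study 1. ADAR, the enzyme that converts adenosine to inosine in double-stranded RNA and is itself IFN stimulated, had 394 to 424 CPM in CTRL, 368 to 386 CPM after ADAR targeting, 1322 CPM after combined targeting on day 5 and 1236 CPM after IFN-α, so its RNA level does not report the targeting. Of 12 monocytic markers, 10 had a median above 1 CPM in study 1, while CD14 and CD68 did not, and the summed epithelial and T cell markers stayed at or below 0.159 and 0.169 CPM.

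TRIM6, TRIM34, TRIM5 and TRIM22 form a cluster on chromosome 11. TRIM6 (ENSG00000121236.15, chr11:5617339-5634188), TRIM34 (ENSG00000258659.2, chr11:5640994-5665628) and TRIM22 (ENSG00000132274.11, chr11:5710840-5758319) are on the plus strand, and TRIM5 (ENSG00000132256.14, chr11:5684425-5959849) is on the minus strand with TRIM22 inside its span (GRCh37). TRIM21 (ENSG00000132109.8, chr11:4406127-4414932, minus strand) is on the same chromosome outside the cluster, TRIM14 (ENSG00000106785.10, chr9:100831557-100881504, minus strand) is on chromosome 9 and TRIM38 (ENSG00000112343.8, chr6:25963030-25991459, plus strand) on chromosome 6. The cluster spans 342.511 kb and holds 14 other genes, of which 13 are olfactory receptor genes or pseudogenes and the other is the readthrough gene TRIM6-TRIM34. None of the 14 reached a group mean of 1 CPM in either study. Exons shared with another gene make up 83.6% of the exon bases of TRIM34 and 29.2% of those of TRIM6, so exon counts of these genes are uncertain.

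RefSeq promoter windows, from 250 bases before to 50 after the transcription start, were found for 6 of the 7 genes, with no entry for TRIM22. The core of the IFN-stimulated response element, searched as GAAA followed after any 2 bases by GAAA on either strand, was present in the windows of TRIM5, TRIM14, TRIM21 and TRIM34 (in 1 of the 2 windows of TRIM34) and in 3.57% of all 35116 promoter windows. It was not found in those of TRIM6 and TRIM38. The matches are shown because these are the sequences through which IFN-activated factors are known to act, written 5′ to 3′ along the gene (GRCh38.p14), with the matching bases in capitals. A match with TTTC is the same motif read on the other strand.
TRIM5, positions -27 to -18 from the start, chr11:5685082-5685111, minus strand: atagtttatcTTTCACTTTCctgccctgag
TRIM14, positions -26 to -17, chr9:98119229-98119258, minus strand: acggccgaggTTTCGGTTTCccttgggagc
TRIM21, positions 17 to 32, with a pair of overlapping matches, chr11:4393663-4393692, minus strand: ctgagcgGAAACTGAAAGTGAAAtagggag
TRIM34, positions -90 to -81, chr11:5624901-5624930, plus strand: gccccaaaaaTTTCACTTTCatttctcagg

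Levels per kb of exon set the 7 genes far apart in CTRL cells. On day 5, TRIM21, an IgG receptor and E3 ligase, had a mean of 29.1 CPM per kb, TRIM14 11.7, TRIM5 3.96, TRIM38 2.23, TRIM22 0.207, TRIM6 0.0923 and TRIM34 0.0140. No neighbors in this order overlapped between their 3 libraries. After combined targeting, the day 5 order was TRIM21 (161 CPM per kb), TRIM22 (36.5), TRIM5 (30.6), TRIM14 (21.7) and TRIM38 (4.92), with overlap between TRIM22 and TRIM5 and between TRIM5 and TRIM14. By these lengths, TRIM22 went from the fifth to the second place among the 7 genes. The exon lengths come from a later GENCODE release than the counted exons, so the order between genes is approximate. After IFN-α, TRIM14 with 29.0 CPM per kb stood above TRIM22 with 18.9 and TRIM5 with 14.1, without overlap. Of the 7 genes, 5 passed the expression filter of an average of 0.5 on the log2 CPM scale in both studies. TRIM6 and TRIM34 did not, with 19 to 98 and 0 to 46 counts per library in study 1, and they are given from separate fits below.

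The first comparison asked how the genes respond to added type I IFN. TRIM22, an E3 ligase that restricts HIV-1, influenza A and hepatitis B viruses, was the most responsive of the 5 tested. CTRL libraries of day 4 held 1.99, 1.97 and 2.27 CPM, and IFN-α-treated libraries 234, 232 and 245 CPM. This was a 114-fold rise, a log2 fold change of 6.83 ± 0.214 (SE, adjusted p = 2.00e-25, edgeR quasi-likelihood test). The choice of TRIM22 rested on these same CTRL libraries, so its p-value here is not free of that choice. TRIM5, the capsid-binding factor that restricts retroviruses, went from 19.4, 19.7 and 21.3 CPM to 67.8, 78.0 and 81.1 CPM, a log2 fold change of 1.91 ± 0.121 (adjusted p = 7.07e-16). TRIM14, a mitochondrial adaptor of RIG-I and MAVS signaling that lacks a RING domain, went from 70.5, 73.1 and 65.3 CPM to 144, 171 and 161 CPM (log2 fold change 1.19 ± 0.111, adjusted p = 6.03e-11). TRIM21 went from 52.1, 55.8 and 55.5 CPM to 107, 117 and 122 CPM (log2 fold change 1.08 ± 0.0693, adjusted p = 1.14e-15). TRIM38, described as a negative regulator of TLR3 and TLR4 signaling, went from 18.95, 19.7 and 18.8 CPM to 28.5, 27.2 and 30.2 CPM, a log2 fold change of 0.58 ± 0.0793 that passed the adjusted p (5.99e-07) but not the fold threshold. All 5 genes were above CTRL in every treated library, while the share of all genes with such separation was not determined. A gene is called here at a log2 fold change of at least 1 in size and an adjusted p of at most 0.05, and 4 of the 5 were called higher, against 1.21% of the 13193 genes tested. Their median log2 fold change was 1.19, compared with 0.02 over all genes. In these bulk libraries, fewer responding cells and less RNA per cell cannot be told apart. The study describes its sequencing data as coming from independent experiments, while GEO's labels give only a replicate number, so the p-values measure the spread between those replicates within 1 clone.

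After both single targetings of study 1, TRIM22 lay above CTRL on each day. CTRL libraries of day 3 held 2.03, 1.75 and 2.25 CPM of TRIM22 and those of day 5 held 2.70, 2.04 and 3.07 CPM. ADAR-targeted libraries held 2.90, 2.72 and 3.38 CPM on day 3, 4.82, 4.45 and 4.05 CPM on day 4, and 10.4, 7.02 and 8.61 CPM on day 5. hnRNPC-targeted libraries held 4.89, 4.31 and 3.70 CPM on day 3, 6.59, 5.71 and 5.59 CPM on day 4, and 7.69, 7.99 and 7.31 CPM on day 5. All 18 targeted libraries were above the CTRL libraries of the same day. The log2 fold changes were 0.58, 1.09 and 1.74 for ADAR (SE 0.185 to 0.203) and 1.10, 1.52 and 1.56 for hnRNPC (SE 0.184 to 0.196) on days 3, 4 and 5. The shares of all genes called higher were 0%, 0.0682% and 0.273% for ADAR and 0.553%, 1.59% and 3.98% for hnRNPC on these days. TRIM22 was chosen for these values, so they carry no test.

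GFP libraries also held more TRIM22 than CTRL libraries of the same day, without overlap, with 3.36, 2.43 and 2.41 CPM on day 3, 3.84, 2.49 and 3.44 CPM on day 4 and 3.41, 3.49 and 3.61 CPM on day 5. By day, 0 of the 5 genes were called in GFP against CTRL (0.0227%, 0% and 0.212% of all genes were called on days 3, 4 and 5). TRIM22 differed by 0.45, 0.64 and 0.43 on the log2 scale (adjusted p = 0.9996, 0.404 and 0.167, edgeR). TRIM22 was the 1 gene of the 5 with an unadjusted p under 0.05 on each day, and DESeq2 and limma-voom also called 0 of 5. Over the mean of the 3 days, a contrast added after seeing the data, TRIM22 differed by 0.50 ± 0.1145 (adjusted p = 0.0274), which is under the fold threshold, and 0 of 5 were called (0.0227% of all genes). TRIM22 was chosen by single-targeting values against these same CTRL libraries, so its p-values against GFP are not free of that choice. With GFP in place of CTRL as the control, the TRIM22 values were 0.13, 0.45 and 1.31 for ADAR and 0.65, 0.88 and 1.13 for hnRNPC targeting. ADAR libraries overlapped GFP libraries on day 3 only, and hnRNPC libraries were above GFP libraries on each day.

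**Figure D1:**
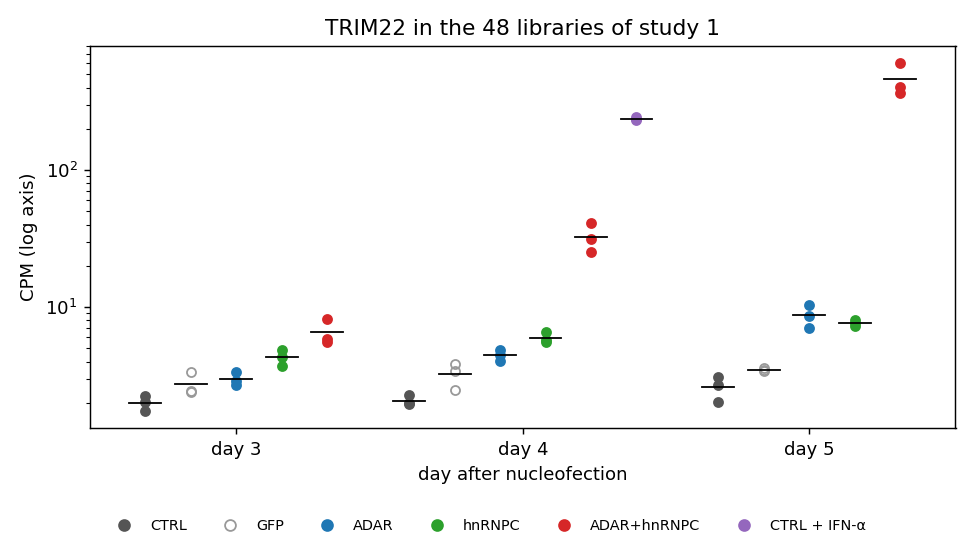
TRIM22 in CPM (log axis) in each library of study 1 by day after nucleofection, with points for libraries, colors for groups and a bar for each mean. CTRL and GFP libraries stay below 4 CPM, single targeting reaches 10.4 CPM, and combined targeting goes from 5.61 to 8.17 CPM on day 3 to between 366 and 601 CPM on day 5, above the 232 to 245 CPM of the IFN-α-treated libraries.

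TRIM5, TRIM14, TRIM21 and TRIM38 had single-targeting log2 fold changes between -0.86 and 0.45, and they differed from CTRL without overlap mostly after hnRNPC targeting. TRIM21 had 67.0, 67.5 and 70.2 CPM on day 3 and 79.6, 77.5 and 73.5 CPM on day 5 after hnRNPC targeting, above CTRL on each day, which put its daily log2 fold changes at 0.15, 0.42 and 0.45. TRIM14 went the other way after hnRNPC targeting, with 36.0, 37.7 and 32.6 CPM on day 5 against 64.4, 66.1 and 61.8 CPM in CTRL, a log2 fold change of -0.86 ± 0.110. TRIM38 had 18.1, 18.6 and 17.8 CPM there against 20.8, 20.03 and 22.2 CPM in CTRL (-0.21 ± 0.0791), and TRIM5 was at 0.00 ± 0.118. Libraries also lay apart from CTRL for TRIM14 on day 4 (lower), for TRIM38 on day 3 (lower) and for TRIM5 on day 3 (higher). After ADAR targeting, TRIM5, TRIM14, TRIM21 and TRIM38 had log2 fold changes between -0.08 and 0.20 over the 3 days, and only TRIM38 on day 4 lay apart from CTRL (higher). How many of all genes lay apart from CTRL in these comparisons was not determined.

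Combined targeting addresses the joint loss of both proteins. TRIM22 had the largest change of the 5 genes on each day, with 8.17, 5.82 and 5.61 CPM on day 3, 31.3, 25.4 and 41.0 CPM on day 4, and 366, 407 and 601 CPM on day 5. Its log2 fold change against CTRL of the same day, whose libraries also served the comparisons above, stood at 1.70 ± 0.194, then 3.97 ± 0.194 and finally 7.46 ± 0.218, the last a 176-fold rise (adjusted p = 8.86e-09, 5.81e-19 and 8.16e-27, edgeR). TRIM22 was chosen by its single-targeting values against these same CTRL libraries, so its p-values here are not free of that choice. On day 3 it was the only one of the 5 called, with 0.864% of all genes called higher. On day 4 it was again the only one called (3.42% of all genes), while TRIM21 (0.52 ± 0.0688), TRIM5 (0.45 ± 0.118) and TRIM38 (0.30 ± 0.0792) passed the adjusted p but not the fold threshold, and TRIM14 did neither (-0.22 ± 0.109, adjusted p = 0.0915).

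On day 5, 4 of the 5 tested genes were called higher, against 9.41% of all genes. TRIM5 reached 128, 149 and 214 CPM, compared with 20.6, 21.8 and 21.2 CPM in CTRL, a log2 fold change of 2.95 ± 0.125 (adjusted p = 4.76e-22). TRIM21 reached 273, 299 and 363 CPM, compared with 55.5, 57.5 and 55.9 CPM (2.47 ± 0.0721, adjusted p = 8.16e-27). TRIM38 reached 43.1, 40.7 and 55.3 CPM, compared with 20.8, 20.03 and 22.2 CPM (1.14 ± 0.0795, adjusted p = 1.28e-15). Leaving out the third ADAR+hnRNPC library, which had the highest value of all 5 genes, put TRIM38 at the fold threshold (1.00) and it was no longer called. TRIM14 reached 104, 118 and 135 CPM and passed the adjusted p (3.67e-09) but not the fold threshold (0.89 ± 0.110). The median log2 fold change of the 5 genes was 2.47, compared with -0.04 over all genes. Libraries of combined targeting and of CTRL did not overlap on day 5 for any of the 5 genes. The share of all genes without such overlap was not determined, so this separation is description only.

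**Figure D2:**
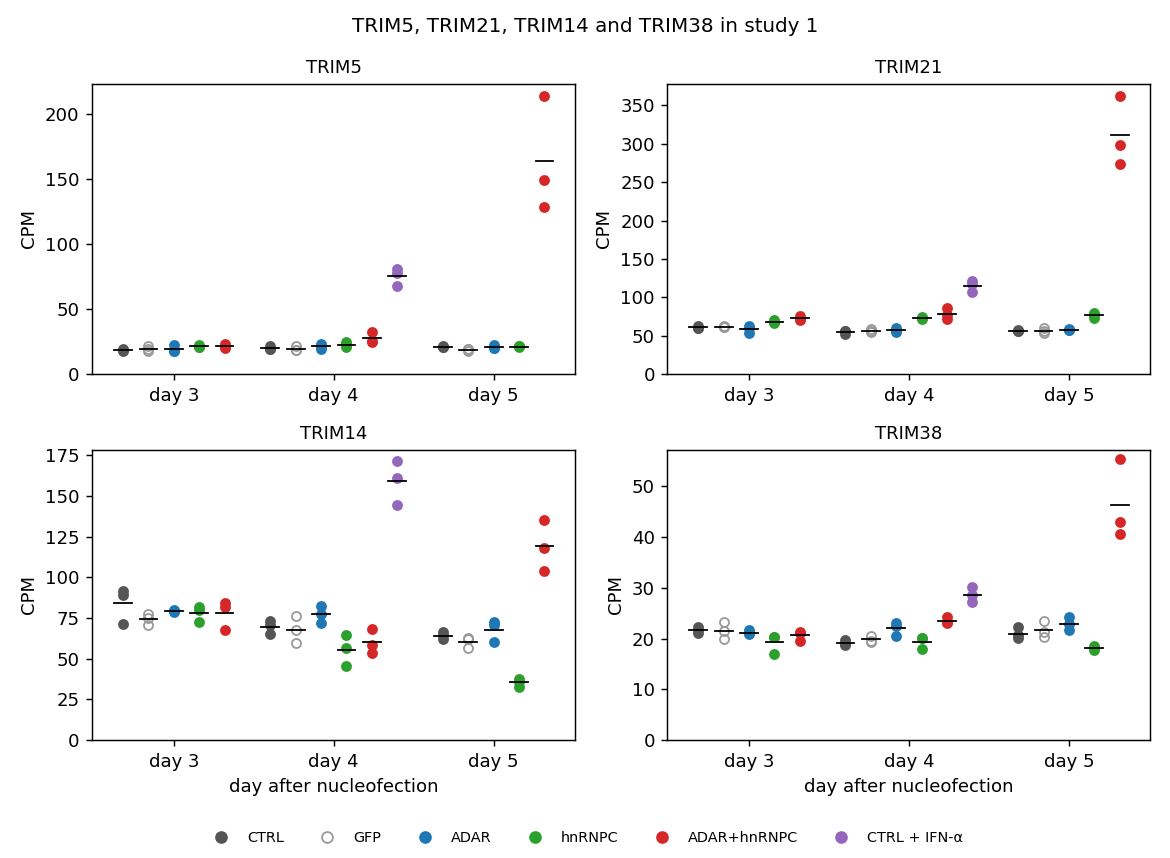
TRIM5, TRIM21, TRIM14 and TRIM38 in CPM in each library of study 1 by day after nucleofection, with points for libraries, colors for groups and a bar for each mean, each axis starting at 0. TRIM5 and TRIM21 are highest after combined targeting on day 5 (128 to 214 and 273 to 363 CPM), TRIM14 is highest after IFN-α (144 to 171 CPM) and lowest after hnRNPC targeting on day 5 (32.6 to 37.7 CPM).

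Within the ADAR+hnRNPC group, day 5 against day 3 gave 4 of 5 genes called higher (6.91% of all genes): TRIM22 with a log2 fold change of 6.13 ± 0.203, TRIM5 with 2.93 ± 0.125, TRIM21 with 2.10 ± 0.0711 and TRIM38 with 1.17 ± 0.0796. TRIM14 rose by 0.61 ± 0.109, under the fold threshold. In CTRL cells, 0 of 5 were called between day 3 and day 5 (0.667% of all genes in either direction, edgeR; 0 by DESeq2 and limma-voom, and 1 of 5 at an unadjusted p under 0.05), and TRIM14 was lower on day 5 by a log2 fold change of -0.39 ± 0.109 (adjusted p = 0.00827) that was under the fold threshold.

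The responses to combined targeting and to IFN-α were not alike across the genes. Day 5 of combined targeting exceeded IFN-α on day 4 for TRIM21 (log2 difference 1.44 ± 0.0696, adjusted p = 6.06e-20) and TRIM5 (1.11 ± 0.117, adjusted p = 8.29e-11), the 2 of 5 genes called, against 14.5% of all genes in either direction. TRIM5 was not called without the third ADAR+hnRNPC library (0.88), which left 1 of 5. TRIM22 (0.95 ± 0.161) and TRIM38 (0.70 ± 0.0788) were higher and TRIM14 was lower (-0.42 ± 0.109, adjusted p = 0.000838), all under the fold threshold. Day and treatment both differ in this comparison and cannot be told apart.

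**Figure D3:**
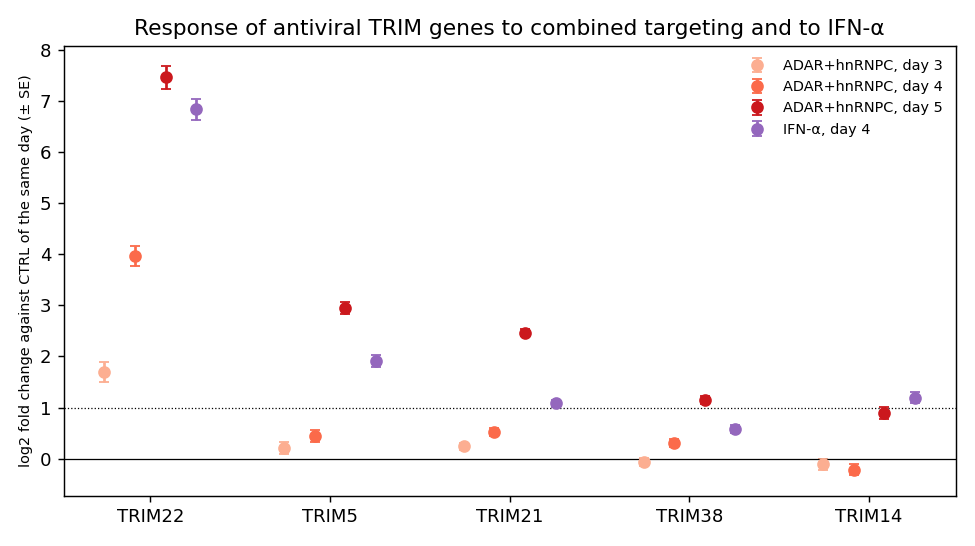
Log2 fold change (± SE) against CTRL of the same day for each tested gene after combined targeting on days 3, 4 and 5 and after IFN-α on day 4, with a dotted line at the threshold of 1. Among the days of combined targeting, TRIM22 passes the threshold on each and TRIM5, TRIM21 and TRIM38 on day 5 only, and TRIM14 is the only one of the 5 genes whose IFN-α value (1.19) is above its day 5 value (0.89).

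The interaction of ADAR and hnRNPC targeting, which asks whether the combined response exceeds the sum of the single ones on the log2 scale, was fitted for each day. On days 3 and 4, 0 of the 4 genes other than TRIM22 were called (adjusted p of at most 0.05), while 0% of all genes were called on day 3 and 4.03% on day 4 in either direction. Also at an unadjusted p under 0.05, and by DESeq2 and limma-voom, 0 of 4 were called on both days, with values between -0.06 and 0.19. On day 5, all 4 were called higher, when 22.8% of all genes were called higher and 25.5% lower (48.3% in either direction): TRIM5 with 2.96 ± 0.185, TRIM21 with 1.96 ± 0.116, TRIM14 with 1.65 ± 0.131 and TRIM38 with 1.20 ± 0.131 (adjusted p = 1.67e-08, 8.94e-09, 2.09e-07 and 5.49e-06, edgeR). For TRIM14 on day 5, hnRNPC targeting alone gave -0.86, with no test, and combined targeting 0.89, under the fold threshold. TRIM22 had interaction values of 0.04 ± 0.241, 1.36 ± 0.211 and 4.14 ± 0.257 on days 3, 4 and 5, which carry no test.

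Across the 16 group means of log2 CPM in study 1, TRIM5 and TRIM21 varied most closely together (Pearson's r 0.957), followed by TRIM5 and TRIM22 (0.941), whereas TRIM14 correlated with the others at 0.508 to 0.675. The 5 other genes most like TRIM22 over these means were PARP9 (0.984), OAS2 (0.982), IFIT5 (0.982), IRF9 (0.981) and MX1 (0.981). All are genes known to be IFN stimulated. The group means come from 48 libraries that share a cell clone, and groups of a day share its controls.

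Reads in introns were counted separately in study 1. Introns were summed for each gene after seeing the data, with introns lying in both TRIM5 and TRIM22 put with TRIM22. On day 5 of combined targeting, the summed introns of TRIM22 had a log2 fold change of 7.57 ± 0.418, those of TRIM5 2.86 ± 0.185, of TRIM21 2.10 ± 0.204, of TRIM38 1.26 ± 0.227 and of TRIM14 1.13 ± 0.129, next to 7.46, 2.95, 2.47, 1.14 and 0.89 for the exons. After IFN-α, TRIM22 introns had 6.78 ± 0.411, TRIM5 1.82 ± 0.179, TRIM21 1.05 ± 0.199, TRIM14 0.83 ± 0.129 and TRIM38 0.43 ± 0.226 (adjusted p = 0.601 for TRIM38). The strand setting of the counting is not given in the sources used here, so reads from TRIM5 and TRIM22 where they overlap cannot be told apart. A TRIM5 intron outside TRIM22 (chr11:5688942-5699433, GRCh37) was therefore read on its own, and it had 2.43 ± 0.198 after combined targeting and 1.79 ± 0.196 after IFN-α. On day 4 of combined targeting, TRIM22 introns had 4.63 ± 0.383 and TRIM5 introns 0.73 ± 0.176 (adjusted p = 4.06e-12 and 0.00217). The TRIM22 intron values of study 1 also rest on the CTRL libraries used in its choice. On day 5 of single targeting, with no test, TRIM22 introns had 1.96 ± 0.360 after ADAR and 1.88 ± 0.357 after hnRNPC targeting, next to 1.74 and 1.56 for its exons. Of 11 introns that lie inside only 1 of the genes and passed the intron filter, 8 were called higher after combined targeting and 6 after IFN-α, compared with 5.56% and 0.818% of the 21876 introns tested. For IFN-α this count fell to 2 without the second CTRL library of day 4, and to 3 without the third or without the first IFN-α library.

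TRIM6 and TRIM34, below the expression filter in exons, were also read in these introns. For TRIM6 the exons held more reads, with 56, 49 and 46 in the CTRL libraries of day 5. TRIM34, a relative of TRIM5 that also binds lentiviral capsids, had 205, 180 and 192 intron reads in CTRL on day 5, 1023, 1212 and 1787 after combined targeting and 725, 487 and 655 after IFN-α. Its summed introns had a log2 fold change of 2.94 ± 0.278 after combined targeting and 2.55 ± 0.279 after IFN-α (adjusted p = 3.46e-11 and 1.09e-08). TRIM6, which makes unanchored ubiquitin chains that activate the kinase IKKε, had 16, 9 and 12 intron reads in CTRL, 118, 147 and 214 after combined targeting and 46, 45 and 51 after IFN-α, with 3.82 ± 0.372 and 2.40 ± 0.408 (adjusted p = 7.39e-11 and 0.000112). CTRL libraries of day 4, the control for IFN-α, held 154, 134 and 90 intron reads of TRIM34 and 18, 7 and 7 of TRIM6. In both genes, every library of combined targeting and of IFN-α was above every CTRL library of its day. The share of all genes with such separation in introns was not determined, so this is description only. TRIM6 and TRIM34 both share exons with the readthrough gene TRIM6-TRIM34, so intron reads of each may also come from that gene. In exon counts without the expression filter, TRIM34 had 2.86 ± 0.969 on day 5 of combined targeting (adjusted p = 0.0129) and TRIM6 0.91 ± 0.413 (adjusted p = 0.0906).

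**Figure D4:**
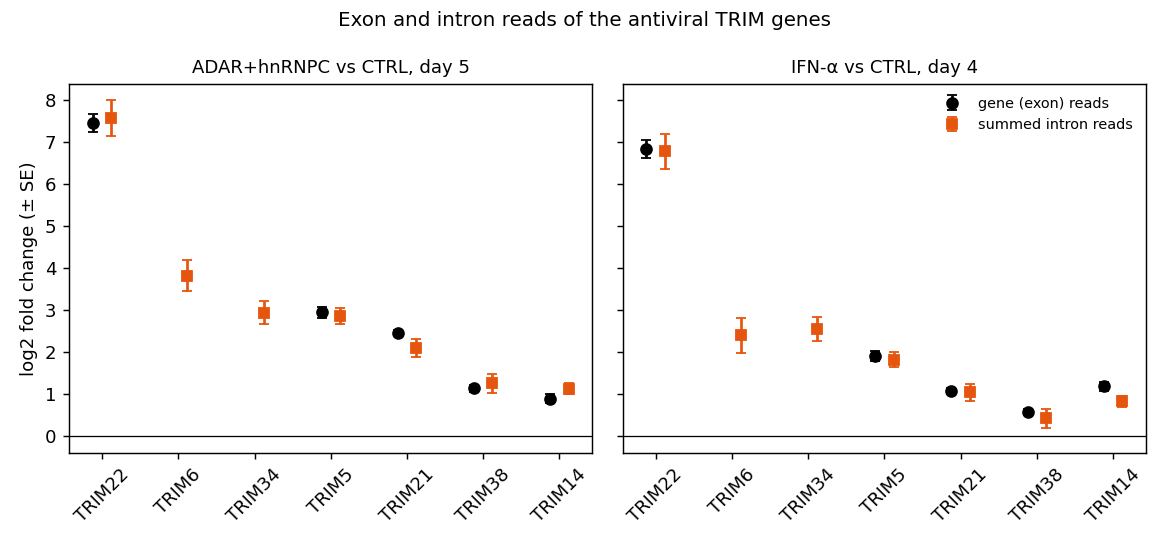
Log2 fold change (± SE) of exon counts and of summed intron counts for each gene in study 1, after combined targeting on day 5 (left) and after IFN-α on day 4 (right). For the 5 genes with both values the order is TRIM22, TRIM5, TRIM21, TRIM38, TRIM14 in exons and in introns on the left (7.46 to 0.89 and 7.57 to 1.13), and TRIM6 and TRIM34, which have intron values only, lie between 2.40 and 3.82.

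The low exon level of TRIM14 after hnRNPC targeting had no counterpart of that size in its introns. Summed introns of TRIM14 had a log2 fold change of -0.03 ± 0.128 on day 5 of hnRNPC targeting, next to -0.86 for its exons. Intron reads per 100 exon reads of TRIM14 were 61.3 to 66.7 in the 3 hnRNPC libraries, 34.4 to 38.3 in CTRL and 40.5 to 44.1 after combined targeting. These are values of a single targeting and carry no test. The same ratio was 13.8 to 14.9 for TRIM21 after hnRNPC targeting and 11.3 to 14.5 in CTRL, 43.0 to 44.5 for TRIM38 compared with 32.9 to 34.3, 21.9 to 24.3 for TRIM5 compared with 13.8 to 19.5, and 18.8 to 23.3 for TRIM22 compared with 12.1 to 22.6. For TRIM14, TRIM38 and TRIM5 the hnRNPC libraries thus lay above CTRL, and for TRIM21 and TRIM22 they overlapped it. The paper reports higher intron RNA without higher gene expression after hnRNPC deletion more widely. The share of all genes with a raised ratio was not determined, so this is no trait particular to these genes.

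In study 2, CTRL cells held more TRIM22 than those of study 1, with 16.4 and 12.7 CPM in total RNA, although the tables were normalized separately. Combined targeting gave 135 and 75.6 CPM in total and 139 and 91.9 CPM in cytosolic RNA, where CTRL had 14.4 and 12.5 CPM. The log2 fold change was 2.86 ± 0.355 in total and 3.10 ± 0.359 in cytosolic RNA (adjusted p = 3.36e-05 and 5.74e-06). TRIM5 went from 19.3 and 14.03 CPM to 49.3 and 31.0 CPM in total RNA (1.27 ± 0.210, adjusted p = 0.000354) and from 21.6 and 18.3 CPM to 60.9 and 47.2 CPM in cytosolic RNA (1.44 ± 0.210, adjusted p = 5.82e-05). TRIM21 had 0.87 ± 0.189 in total RNA, under the fold threshold, and 1.14 ± 0.190 in cytosolic RNA (adjusted p = 0.000204). In all, 2 of 5 genes were called higher in total RNA (3.36% of all genes) and 3 of 5 in cytosolic RNA (6.67%). TRIM38 (0.49 and 0.35) and TRIM14 (0.27 and -0.20) were not called. Without the first ADAR+hnRNPC library, TRIM5 (0.89) was not called in total RNA, which left 1 of 5, and TRIM21 (0.91) was not called in cytosolic RNA. TRIM21 was called in total RNA (1.17 and 1.12) without the first CTRL library or without the second ADAR+hnRNPC library, which made 3 of 5.

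The single targetings of study 2 called 0 of the 4 genes other than TRIM22 in total and in cytosolic RNA, by edgeR and by DESeq2 and limma-voom. At an unadjusted p under 0.05 there were 3 and 1 of 4 for hnRNPC and 3 and 3 of 4 for ADAR. The shares of all genes called in either direction were 0.733% and 0.484% for hnRNPC and 2.93% and 4.95% for ADAR. TRIM5 after ADAR targeting had 32.9 and 25.5 CPM in total RNA, a log2 fold change of 0.81 ± 0.209 that passed the adjusted p (0.0189) but not the fold threshold, and it was called (1.06) without the first CTRL library. TRIM21 after ADAR targeting had 0.58 ± 0.189 (adjusted p = 0.0520), and TRIM14 after hnRNPC targeting had 62.9 and 61.3 CPM, compared with 72.9 and 95.01 CPM in CTRL (-0.44 ± 0.178, adjusted p = 0.150). TRIM22, with no test, had 64.9 and 39.9 CPM after ADAR and 38.2 and 20.2 CPM after hnRNPC targeting in total RNA, log2 fold changes of 1.85 ± 0.344 and 1.00 ± 0.339. Both ADAR libraries were thus above both hnRNPC libraries, whereas on days 3 and 4 of study 1 the hnRNPC value was the larger.

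The interaction in study 2, added after seeing the data, was called for 2 of 4 genes in total RNA, TRIM14 (0.74 ± 0.251, adjusted p = 0.0430) and TRIM38 (0.54 ± 0.169, adjusted p = 0.0333), when 7.18% of all genes were called higher and 15.9% lower (23.1% in either direction) and the median over all genes was -0.23. With DESeq2's scaling that median shifted by 0.20, and 2 of 4 were called. Fitting only the groups compared left 0 of the 4. Without the first CTRL library 2 were called, without the first hnRNPC library 1 (TRIM38), and without any of the other libraries of these groups 0. In cytosolic RNA it was called for 0 of 4 (0% of all genes in edgeR, 0 of 4 by DESeq2 and limma-voom, 0 of 4 at an unadjusted p under 0.05), with TRIM14 at -0.09 and TRIM38 at 0.34. TRIM22 had 0.00 ± 0.479 in total and 0.40 ± 0.472 in cytosolic RNA. Against CTRL in total RNA, TRIM14 had -0.44 after hnRNPC targeting and 0.27 after combined targeting, and neither was called.

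**Figure D5:**
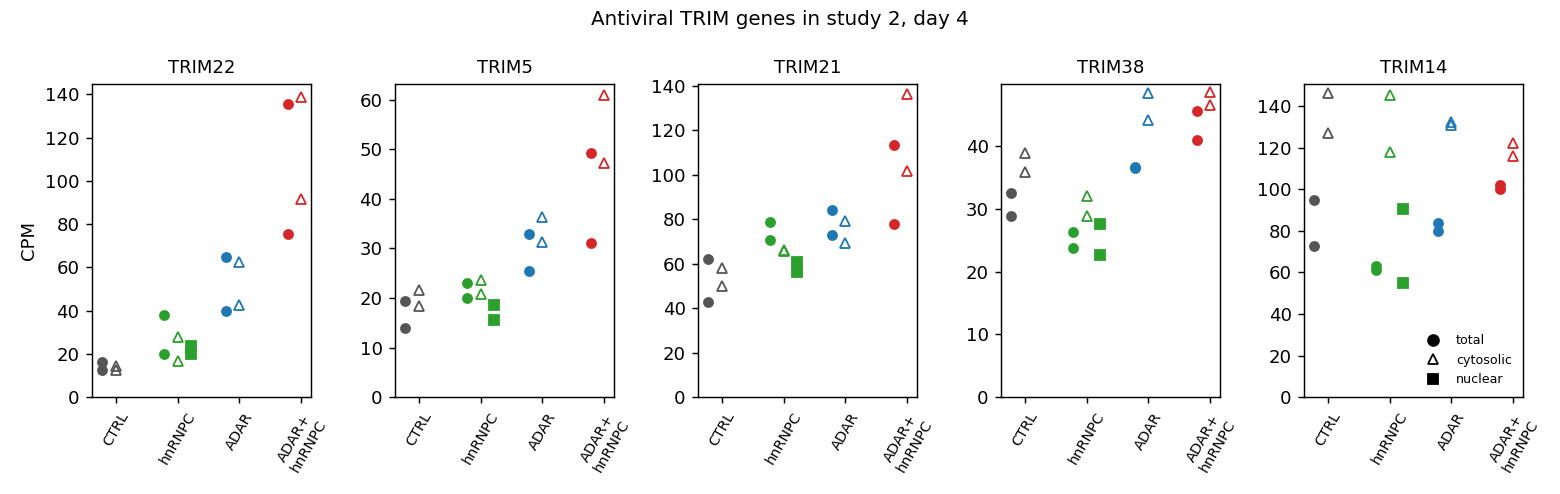
CPM in each library of study 2 (day 4) for TRIM22, TRIM5, TRIM21, TRIM38 and TRIM14, with circles for total, triangles for cytosolic and squares for nuclear RNA, colors for groups and each axis starting at 0. TRIM22 goes from 12.5 to 16.4 CPM in CTRL to between 75.6 and 139 CPM after combined targeting, and TRIM14 lies higher in cytosolic (116 to 146 CPM) than in total RNA (61.3 to 102 CPM).

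Between compartments, 0 of 5 genes were called for cytosolic against total RNA (8.89% of all genes in either direction) and 0 of 5 for cytosolic against nuclear RNA of hnRNPC-targeted cells (30.5%), by edgeR and by DESeq2 and limma-voom, while 3 and 2 of 5 had an unadjusted p under 0.05. TRIM14 had the largest difference, 0.68 ± 0.0889 for cytosolic against total RNA (adjusted p = 3.18e-06), where the median over all genes was 0.17 (shifted by -0.11 with DESeq2's scaling). It had 0.86 ± 0.178 against nuclear RNA, where the median was 0.27 (shifted by -0.25), and was called there without the second cytosolic (1.00) or the second nuclear library (1.25). TRIM22 (-0.09 ± 0.167 and 0.02 ± 0.336) and TRIM21 (0.03 ± 0.0940 and 0.17 ± 0.188) had differences no larger than their standard errors.

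Among the 35 tested of 74 other TRIM family genes, 3 were called higher after IFN-α and 0 lower, and 9 were called higher and 3 lower on day 5 of combined targeting. Of all genes, 1.21% and 9.41% were called higher in these comparisons. The median log2 fold change of these 35 genes was 0.00 and 0.44, next to 1.19 and 2.47 for the 5 tested antiviral genes. Those were chosen with earlier results of these data known, so the difference in medians was not tested. TRIM25 (1.11 ± 0.0648 and 1.34 ± 0.0651), named after its value was seen, was called in both comparisons. TRIM69, known to restrict vesicular stomatitis virus, had 2.21 ± 0.120 after IFN-α and 4.13 ± 0.129 after combined targeting, and PML, which organizes nuclear bodies, had 1.58 ± 0.0928 and 2.72 ± 0.0963. TRIM56 (0.84 and 1.93), TRIM26 (0.73 and 1.72), MEFV, which encodes pyrin (0.15 and 1.91), and TRIM2 (-0.31 and 1.70) were called after combined targeting and not after IFN-α. In the direct comparison of day 5 with IFN-α, 5 of the 35 were called higher and 1 lower, when 14.5% of all genes were called in either direction.

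Among 26 tested of 29 genes of RNA sensing, IFN signaling and TRIM function, 10 were called higher after IFN-α (median 0.17), and 11 higher and 1 lower on day 5 of combined targeting (median 0.37). The shares of all genes called higher were 1.21% and 9.41%. The ubiquitin-like modifier ISG15 had 5.18 ± 0.201 and 6.81 ± 0.217, its protease USP18 4.87 ± 0.213 and 6.27 ± 0.226, the transcription factor IRF7 3.75 ± 0.194 and 5.33 ± 0.207. The sensor genes RIGI (2.95 and 5.52), IFIH1, which encodes MDA5 (2.97 and 4.46), and DHX58, which encodes LGP2 (3.49 and 4.67), rose in both. PPIA, which encodes cyclophilin A, a partner of HIV-1 capsid in TRIM5 restriction, was the 1 gene called lower (-1.47 ± 0.0670) and is named after its value was seen. On day 3 of combined targeting, 0 of these 26 genes and 0 of the 35 other TRIM genes were called by edgeR, DESeq2 or limma-voom (0.864% of all genes were called higher by edgeR). At an unadjusted p under 0.05 there were 9 and 12, with ISG15 at 0.22 ± 0.182 and PML at 0.32 ± 0.0917. TRIM22, called on that day, was chosen for its rise after single targeting against these same CTRL libraries. Its timing can therefore not be compared with that of these lists. On day 4, 7 of the 26 and 0 of the 35 were called higher (3.42% of all genes). In study 2, combined targeting called 9 of the 26 and 2 of 33 other TRIM genes higher in total RNA (3.36% of all genes).

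Few sites of adenosine-to-inosine editing inside the genes' own RNA had enough reads to be compared by library. With at least 10 reads at a site in every library, study 1 left 2 sites in TRIM21 and 1 in TRIM38, with 0% edited reads in all CTRL libraries of day 5, and no difference from CTRL could be detected (exact two-sided permutation test, p = 0.4 to 1.0, where 3 libraries against 3 cannot go below 0.1). These CTRL libraries had only 20, 33 and 44 reads for TRIM21 and 11, 20 and 18 for TRIM38. Such zeros allow shares of up to 6.82% at the lowest limit and 27.3% at the highest. As background, 103393 sites of the whole table had 4.48% ± 0.156 edited reads in CTRL (SD, n = 3) and 1.80% ± 0.0344 after ADAR targeting on day 5. Study 2 left 27 sites in TRIM38, where CTRL libraries had 13 of 738 and 7 of 724 edited reads (1.76% and 0.967%). ADAR-targeted libraries had 1 of 678 and 0 of 673, the latter allowing a share of up to 0.446%, and ADAR+hnRNPC libraries 1 of 823 and 1 of 656. The ADAR and ADAR+hnRNPC libraries were below CTRL, while hnRNPC libraries had 6 of 559 and 9 of 403 and overlapped CTRL. At 13 sites of TRIM5, CTRL libraries had 20 of 751 and 0 of 520 edited reads, the latter allowing a share of up to 0.577%, ADAR libraries 5 of 1380 and 5 of 814, hnRNPC libraries 13 of 913 and 6 of 760, and ADAR+hnRNPC libraries 5 of 1691 and 3 of 1239. For TRIM5 the CTRL libraries stood on both sides of the other groups, so the groups overlapped. No test was made at 2 libraries per group. Reads were also pooled over all 69 sites of TRIM14 in study 1, a sum made after seeing the data. On day 5, edited reads were 63 of 965 in CTRL (6.53%, exact 95% interval 5.05 to 8.28) and 24 of 916 after ADAR targeting (2.62%, 1.69 to 3.87). They were 54 of 638 after hnRNPC targeting (8.46%, 6.42 to 10.9) and 106 of 3399 after combined targeting (3.12%, 2.56 to 3.76). IFN-α-treated libraries, harvested on day 4, had 151 of 1786 (8.45%, 7.21 to 9.84). CTRL of day 4 was not pooled, so that value has no control of its own day. Over 14 sites of TRIM14 in study 2 they were 22 of 150 in CTRL (14.7%, 9.43 to 21.4), 3 of 167 after ADAR targeting (1.80%, 0.372 to 5.16), 29 of 215 after hnRNPC targeting (13.5%, 9.22 to 18.8) and 10 of 323 after combined targeting (3.10%, 1.49 to 5.62). The same sums for TRIM38 in study 1, over 46 sites, gave 40 of 1644 in CTRL (2.43%, 1.74 to 3.30). ADAR targeting gave 32 of 1750 (1.83%, 1.25 to 2.57), an interval overlapping that of CTRL, and combined targeting 65 of 5736 (1.13%, 0.876 to 1.44). For TRIM38 in study 2, over 64 sites, CTRL had 96 of 2671 (3.59%, 2.92 to 4.37) and ADAR targeting 28 of 2302 (1.22%, 0.810 to 1.75). TRIM21 had 1 of 383 in CTRL and 0 of 408 after ADAR targeting in study 1. Intervals and limits cover counting error only. The TRIM38 site of study 2 with the most edited CTRL reads (4 of 60) was at chr6:25988940, in an untranslated exon part, and is shown as the adenosine in capitals within chr6:25988926-25988954 (GRCh37, plus strand).
TRIM38 site: tcctggcctcaagcAatccacccacttcg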

How the data were processed

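RNA was sequenced from 48 total RNA libraries of study 1 and 18 total, cytosolic and nuclear libraries of study 2. The authors deposited raw counts per gene and, for study 1, per intron, made with STAR 2.5.4a on GRCh37 and featureCounts from uniquely aligned pairs against GENCODE annotation, together with counts of edited and all reads at adenosine sites. Kits were strand-specific, and the strand setting of counting is not given in the sources used here. Groups came from GEO's labels, and 0 columns lacked a sample.

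From these counts, edgeR 4.0.16 (R 4.3.3, TMM scaling, quasi-likelihood test) fitted all libraries of a study with 1 coefficient per group, on genes with an average log2 CPM of at least 0.5 (13193 and 13650 genes) and introns with at least 1. P-values were Benjamini-Hochberg adjusted over all genes tested. Genes were called at a log2 fold change of at least 1 in size and an adjusted p of at most 0.05, and interactions, fitted on the 4 groups of a day in study 1, by adjusted p alone. Log2 CPM values, as used for the correlations, had a prior count of 2, while fold changes came from the fit with edgeR's default. CPM per kb used merged exon lengths of a GENCODE annotation lifted to GRCh37, a later release than the one used for counting. Scripts were tested on simulated data with 200 changed genes. The members and lists were chosen with earlier results of these data known. Named genes were the 7 members, ADAR and HNRNPC, the 5 genes most correlated with TRIM22, and up to 6 genes with the largest called change on day 5 from each of 2 lists, of other TRIM genes and of signaling genes (29 of 30 listed genes were matched). Identifiers were matched to symbols for 55538 of 57820 genes.

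Alternatives were DESeq2 1.42.0, limma-voom (limma 3.58.1), RLE scaling, no low-count filter, no fold threshold, only the groups compared, GFP as control, the replicate number as a block, and leaving out each library. The mean GFP contrast, the study 2 interactions, the summed introns, the pooled editing counts and the check of TRIM22 in single targeting under other tools were added after seeing the data. Figures were drawn with matplotlib 3.10.9.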

Additional observations from a re-analysis of the deposited data

Results flagged for a closer look

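The results below were taken up because the response to targeting one gene differed with the state of the other, by the interaction test given. On day 5 of study 1 this interaction came to 2.96 for TRIM5, 1.96 for TRIM21, 1.65 for TRIM14 and 1.20 for TRIM38 on the log2 scale (adjusted p at most 5.49e-06, edgeR), at a time when 48.3% of all genes were called in either direction. In total RNA of study 2 it was 0.74 for TRIM14 and 0.54 for TRIM38 (adjusted p = 0.0430 and 0.0333, edgeR), when 23.1% of all genes were called.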

How the results depend on the processing

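Of 359 recomputed counts of genes or introns called, over 26 results, 329 stayed within 1.5 times the reported count and 30 did not. DESeq2, limma-voom, RLE scaling and GFP as control moved none of the counts they were run on. Without the fold threshold, the counts were 2 on day 3 and 4 on day 4 of combined targeting, 5 for day 5 against IFN-α, 1 for CTRL day 5 against day 3, 1 for the mean GFP contrast, 4 for combined targeting and 1 for ADAR in study 2 total RNA, 1 for ADAR in cytosolic RNA, 3 for cytosolic against total and 2 for cytosolic against nuclear RNA. Without the low-count filter, 1 gene (TRIM34) was called for cytosolic against total RNA, 1 for the study 2 total RNA interaction, and 38 and 25 introns after combined targeting and IFN-α, when more introns were tested. With only the groups compared, the study 2 total RNA interaction called 0 (TRIM14 0.85 and TRIM38 0.64, adjusted p = 0.0573 and 0.0578), and without the filter TRIM38 had 0.54 (adjusted p = 0.0825). The cause was not tested.

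Leaving out each library in turn gave 1 to 3 genes called for day 5 against IFN-α, 1 to 3 for combined targeting and 0 to 1 for ADAR in study 2 total RNA, 0 to 1 for cytosolic against nuclear RNA, 0 to 2 for the study 2 total RNA interaction and 2 to 6 introns for IFN-α. TRIM22 in day 5 against IFN-α passed the fold threshold with DESeq2 (1.04) and without the first (1.09) or second (1.03) ADAR+hnRNPC library. The day 5 interaction called 4 of 4 without each of the 12 libraries.

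Of 1614 recomputed single values, 55 changed sign, none of them a value that had been called. With GFP as control, TRIM14 on day 3 of combined targeting was 0.07, and the day 3 interactions of TRIM5 and TRIM14 were 0.01 and -0.10. In GFP against CTRL, TRIM21 was 0.00 with DESeq2 and 0.01 with RLE on day 3, TRIM38 was 0.00 with RLE on day 3, and TRIM21 was 0.00 on day 5 with only the groups compared. In cytosolic RNA, TRIM14 after hnRNPC targeting was 0.00 with DESeq2. For cytosolic against total RNA, TRIM21 was -0.08 with DESeq2 and -0.01 with only the groups compared. For cytosolic against nuclear RNA, TRIM21 was -0.08 with DESeq2, and TRIM22 was -0.21 with DESeq2, -0.02 with limma-voom, -0.03 with RLE and -0.01 with only the groups compared. Without 1 library, the ranges that crossed 0 were, for GFP against CTRL, -0.01 to 0.02 (TRIM21, day 3), -0.07 to 0.04 (TRIM38, day 3), -0.13 to 0.05 (TRIM14, day 4), -0.05 to 0.04 (TRIM21, day 5) and -0.01 to 0.10 (TRIM38, day 5). For TRIM14 in study 2 they were -0.22 to 0.20 (ADAR, total), -0.21 to 0.09 (hnRNPC, cytosolic), -0.15 to 0.05 (ADAR, cytosolic) and -0.23 to 0.07 (cytosolic interaction). For compartments they were -0.07 to 0.10 (TRIM21) and -0.20 to 0.04 (TRIM22) against total and -0.37 to 0.33 (TRIM22) against nuclear RNA. For interactions they were -0.28 to 0.45 (TRIM5) and -0.52 to 0.08 (TRIM21) in study 2 total RNA, -0.13 to 0.05 (TRIM5) on day 3, and -0.15 to 0.09 (TRIM14) and -0.04 to 0.09 (TRIM21) on day 4.

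Same-numbered libraries of study 1 had a mean correlation of deviations of 0.170 (-0.0840 between other numbers), with 220 of 360 pairs over 0.1 and 40 of 48 libraries closest to their own number. Those of study 2 had 0.116 (-0.116), with 44 of 72 pairs and 16 of 18 libraries. This hints at a shared factor, but not every pair was over 0.1 (lowest -0.365 and -0.336) and the labels do not say what a number marks, so the pairing was left out of the reported fit. The replicate block changed none of 26 counts, and under the block TRIM21 in GFP against CTRL on day 5 was 0.00 and TRIM22 in cytosolic against nuclear RNA was -0.05. Low exon counts limit TRIM6 and TRIM34, whose exons are in part shared with the readthrough gene TRIM6-TRIM34.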
